A study of Mus musculus with 18 samples.

Results

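The genes described here encode granule proteins and calcium-binding proteins of neutrophils. They are S100a8, S100a9, Fcnb, Ngp, BC100530, Mpo, Elane, Prtn3, Ctsg and Anxa1. They were taken by symbol from a table of nascent RNA counts that lists 54232 genes, of which 30157 had a count in any library, and all 10 were among the 17755 genes that passed the filter on low counts. The question was where in the blood-forming fetal liver these genes were transcribed, and how lineage-positive (Lin+) cells differed from each of 5 lineage-negative populations.

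4sU-seq was used, in which cells build 4-thiouridine (4sU) into new RNA that is then purified and sequenced. Cells came from livers of C57BL/6 embryos at e12.5 to e13.5 and were sorted, rested for 6 h and labelled for 45 min with 500 µM 4sU. The lineage-negative populations were S0-Low (CD71- Ter119-), S0-Medium (CD71 medium, Ter119-), S1 (CD71 high, Ter119-), S2 (CD71 high, Ter119 medium) and S3 (CD71 high, Ter119 high), CD71 being the transferrin receptor and Ter119 an antigen gained as red cells mature. Lin+ cells were those stained for any of CD41, CD45R, CD3e, CD11b or Ly-6G/6C, so Lin+ was a mixture by its gate. The study's methods enriched progenitors by magnetic removal of Ter119-stained cells before the sort, and the labels give no CD71 or Ter119 gate for Lin+. Whether the Lin+ cells came from that depleted fraction is not given in the sources used here. Each of the 6 populations had 3 replicates, 18 libraries in all, with 9452476 to 40567976 counts per library. The shallowest was S0-Low replicate 3. The labels do not say whether replicates came from separate litters or sorts, so p-values measure the spread between these libraries, which may be technical.

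Neutrophils store antimicrobial proteins and proteases in granules that form in a fixed order. Azurophil granules are filled in promyelocytes and hold myeloperoxidase (Mpo) and the serine proteases neutrophil elastase (Elane), proteinase 3 (Prtn3) and cathepsin G (Ctsg). Specific and gelatinase granules are filled later, in myelocytes and metamyelocytes. S100a8 and S100a9 form calprotectin, the main cytosolic protein of mature neutrophils, which binds calcium and withholds zinc and manganese from microbes. Ngp (neutrophilic granule protein) is a secondary granule protein, Fcnb (ficolin B) is a lectin of myeloid cells, and BC100530 belongs to the stefin A family of cathepsin inhibitors. Anxa1 (annexin A1) is a phospholipid-binding protein that limits neutrophil recruitment.

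The labels call all 6 populations erythroblasts, but the nascent RNA of Lin+ was poor in erythroid transcripts. The summed level of 6 erythroid markers was 6706 to 8350 normalized counts in Lin+ and 715443 to 1222369 in S3, where a normalized count is a count scaled to the mean effective library size. All 6 were lower in Lin+ than in S3, S2, S1 and S0-Medium, beside 14.1%, 8.34%, 4.66% and 1.29% of tested genes. Against S0-Low 1 of 6 (Klf1) was lower, beside 0.22% (for all 5, edgeR's quasi-likelihood test, adjusted p under 0.05). With the replicate number added to the model as a block, 2 of 6 were lower than in S0-Low, beside 0.648%. Of the sorting antigens, Itga2b (CD41) and Ptprc (CD45R is a form of its product) had means of 8952 and 10189 normalized counts in Lin+. Ly6c2 had 445.0 and Ly6g 20.9, Cd3e had 4 counts in 1 library, and Itgam (CD11b) was listed at 0 in all 18 libraries, Lin+ included. So were Irf8, Fpr2, Csta1, Rag1 and 6 S100 genes (S100a4, S100a5, S100a7a, S100a16, S100b and S100g) of the lists below. The transcript set used for counting is not given in the sources used here, so a gene absent from it and a gene without reads cannot be told apart.

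Markers of several other cell types were also high in Lin+. The summed level of 8 macrophage markers was 6271 to 9669 normalized counts in Lin+ and 1069 to 1708 in S0-Low, of 6 megakaryocyte markers 9560 to 26323 and 2229 to 6637, of 5 mast cell and basophil markers 2814 to 5675 and 688.0 to 1036, of 3 eosinophil markers 7507 to 12111 and 325.5 to 889.9, and of 6 lymphoid markers 1215 to 2982 and 367.8 to 763.8. Against S0-Low, where 0.496% of all tested genes were higher in Lin+, 2 of 3 tested eosinophil markers (Prg2 and Epx) rose. The 4 stem and progenitor markers were at a like level in both, with sums of 20414 to 31638 in Lin+ and 25372 to 33624 in S0-Low. None of the tested macrophage (5), megakaryocyte (6), mast cell and basophil (4), lymphoid (4) or stem and progenitor (4) markers passed. With the replicate block 1 macrophage marker (Adgre1, adjusted p = 0.0106) did, beside 1.28% of all tested genes. Against S1, where 10.9% of tested genes were higher, 3 of 5 macrophage, 5 of 6 megakaryocyte, 4 of 4 mast cell and basophil, 3 of 3 eosinophil, 3 of 4 lymphoid and 3 of 4 stem and progenitor markers were higher in Lin+. Against S3 (28.2%) the numbers were 5, 5, 4, 3, 3 and 4 of the same lists. Against S0-Medium (2.64%) they were 3, 0, 2, 3, 0 and 1, and against S2 (16.3%) 4, 5, 4, 3, 3 and 3. With the replicate block, mast cell and basophil markers fell to 3 of 4 against S1 (13.8%) and S2 (18.8%). Macrophage markers rose to 4 of 5 against S1. Against S0-Medium (4.66%) 3 of 6 megakaryocyte and 3 of 4 mast cell and basophil markers passed with the block. The 10 neutrophil markers, of which S100a8, S100a9 and Ngp are among the genes described here, summed to 45802 to 54669 in Lin+ and 1588 to 4000 in S0-Low, and none was at 0 in Lin+. Of 9 tested, 7 were higher than in S0-Low, and Csf3r and Cxcr2 did not pass (adjusted p = 0.674 and 0.96). In S3, 6 of the 10 were at 0. The part of the other cell types in the levels below was not tested. In sorted bulk samples, fewer cells of a type and less RNA per cell cannot be told apart.

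Promoters of 9 of the 10 genes were found in RefSeq (GRCm38.p6), which has no entry matched to BC100530. The 250 bases before the transcription start of 5 of them are shown, because these genes represent the patterns described next. They are those of S100a8 (chr3:90668821-90669070, plus strand), S100a9 (chr3:90695722-90695971, minus strand), Ngp (chr9:110419558-110419807, plus strand), Mpo (chr11:87793534-87793783, plus strand) and Elane (chr10:79886062-79886311, plus strand). Each is printed in the direction of transcription, and capitals mark matches on either strand to motifs of factors that act in myeloid or erythroid cells.
S100a8: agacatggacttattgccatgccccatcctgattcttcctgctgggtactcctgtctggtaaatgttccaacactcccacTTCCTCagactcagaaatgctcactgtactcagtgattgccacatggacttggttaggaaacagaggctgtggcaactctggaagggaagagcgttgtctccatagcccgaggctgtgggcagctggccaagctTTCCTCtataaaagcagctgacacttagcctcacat
S100a9: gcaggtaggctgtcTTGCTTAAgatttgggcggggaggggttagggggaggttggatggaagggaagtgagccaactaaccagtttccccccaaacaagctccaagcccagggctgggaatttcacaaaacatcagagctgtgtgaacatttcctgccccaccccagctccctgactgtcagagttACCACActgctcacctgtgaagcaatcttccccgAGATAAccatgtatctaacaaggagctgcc
Ngp: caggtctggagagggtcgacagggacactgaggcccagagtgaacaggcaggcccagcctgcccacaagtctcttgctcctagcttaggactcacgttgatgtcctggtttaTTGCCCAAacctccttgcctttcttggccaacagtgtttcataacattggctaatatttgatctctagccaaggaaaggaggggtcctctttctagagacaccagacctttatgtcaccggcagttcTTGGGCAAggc
Mpo: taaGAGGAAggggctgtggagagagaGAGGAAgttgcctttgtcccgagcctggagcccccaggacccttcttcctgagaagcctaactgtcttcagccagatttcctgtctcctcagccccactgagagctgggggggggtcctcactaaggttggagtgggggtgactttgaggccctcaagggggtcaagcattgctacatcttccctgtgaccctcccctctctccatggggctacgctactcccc
Elane: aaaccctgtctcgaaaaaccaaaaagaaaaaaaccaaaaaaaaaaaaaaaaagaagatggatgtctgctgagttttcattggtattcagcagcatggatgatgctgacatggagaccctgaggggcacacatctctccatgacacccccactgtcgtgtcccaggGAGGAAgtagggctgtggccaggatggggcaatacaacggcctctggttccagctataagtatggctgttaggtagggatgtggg

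The C/EBP motif TTGCNNAA was present in 4 of the 9 promoters (S100a9, Fcnb, Ngp and Anxa1) and in 9.6% of 32851 promoters of the same length. The PU.1 core GAGGAA was present in 6 of 9, among them all 4 azurophil genes, with 2 matches each in Mpo and S100a8, and in 23.3% of all promoters. The RUNX motif TGTGGT was found in 2 of 9 (S100a9 and Ctsg) against 14.0%, and the GATA motif AGATAA in 1 of 9 (S100a9) against 10.0%. No match of 1 motif overlapped a match of another in the promoters printed. These are matches of letters and not measured binding.

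The calprotectin genes were transcribed at a high level in Lin+ and had few or no counts elsewhere. S100a9 (chr3:90692630-90695721, GRCm38) had 13526, 18033 and 14734 normalized counts in Lin+ replicates 1, 2 and 3. In S0-Low it had 5, 13 and 2 raw counts, in S0-Medium 1, 2 and 0, in S1 1, 2 and 0, in S2 none and in S3 0, 5 and 0. S100a8, its neighbour on chromosome 3 (chr3:90669071-90670034), had 4963, 7945 and 5159 normalized counts in Lin+. Its counts summed to 2 over the S0-Low libraries, 6 over those of S0-Medium, 1 over S1 and 0 over S2 and S3. For both genes the lowest Lin+ library lay above every other library.

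The other 3 genes of late granulocyte maturation were also highest in every Lin+ library. Ngp had 8264, 7811 and 6058 normalized counts in Lin+, BC100530 had 4143, 7247 and 5980, and Fcnb had 2506, 2401 and 3945. Outside Lin+, Ngp reached 10 counts in S0-Low, all in replicate 3, and at most 2 in any other population. Fcnb had no count in S0-Low or S3, 8 in S0-Medium and 1 each in S1 and S2, and the lineage-negative counts of BC100530 came to 2 for S0-Low, 1 for S0-Medium, 1 for S1 and none for S2 or S3. In the transcript annotation, 40.1% of the 31-base stretches of BC100530 also occur in Stfa1, Gm1975, Csta or Gm5483, so its counts can be shared with those genes and its level is uncertain. None of the stretches of S100a8, S100a9, Ngp or Fcnb occurs in another protein-coding gene. Genes of other kinds were not searched.

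The azurophil granule genes were also highest in Lin+, but they were transcribed in S0-Low as well. Mpo (chr11:87793784-87804412) had 144646, 75770 and 60671 normalized counts in Lin+ and 23663, 13800 and 10429 in S0-Low. Its level was 5167, 740.3 and 278.8 in S0-Medium, 38.2, 18.4 and 17.1 in S1, 0, 9.37 and 7.34 in S2, and 9.69, 36.0 and 0 in S3. Lin+, S0-Low, S0-Medium and S1 did not overlap in Mpo, whereas S2 and S3 did.

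The 3 serine proteases descended through the populations in the same order as Mpo. Prtn3 (chr10:79879667-79883174) had 6392, 4701 and 4470 normalized counts in Lin+, 969.6, 844.0 and 45.2 in S0-Low and 266.7, 47.8 and 45.1 in S0-Medium. S0-Low replicate 3 therefore lay within the range of S0-Medium for Prtn3. Elane, which lies beside Prtn3 on chromosome 10 (chr10:79886312-79888216), had 3546, 1958 and 1714 in Lin+, 158.7, 43.1 and 2.66 in S0-Low and 35.6, 2.24 and 0 in S0-Medium. Ctsg (chr14:56099885-56102574) had 3282, 2534 and 3110 in Lin+, 654.6, 327.1 and 379.9 in S0-Low and 122.2, 26.9 and 43.2 in S0-Medium. In S1, S2 and S3, Elane and Ctsg each had 1 count in 9 libraries, and Prtn3 had 23, 3 and 3 counts.

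Anxa1 was highest in Lin+ and was transcribed at a low level in S0-Low and S0-Medium. It had 6466, 7674 and 8415 normalized counts in Lin+ (chr19:20373434-20390671), 114.1, 91.7 and 95.6 in S0-Low, 46.7, 14.2 and 40.4 in S0-Medium, and 14, 2 and 1 counts in all of S1, S2 and S3. The S0-Low libraries were closely spaced at 100.5 ± 11.9 (SD, n = 3) and did not overlap S0-Medium.

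**Figure D1:**
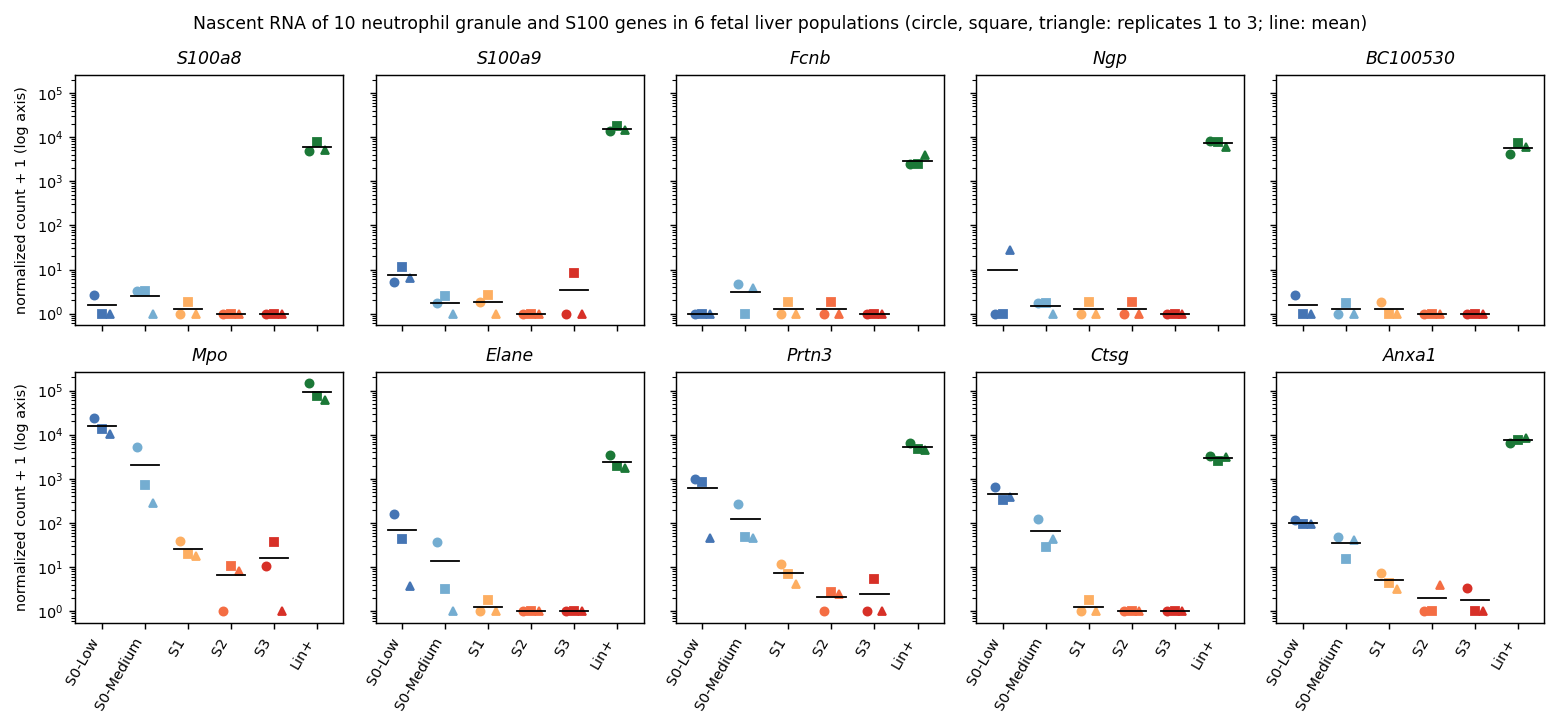
Normalized counts plus 1 on a log axis for the 10 genes in the 6 populations, with 1 point per library and a line at the mean of 3 replicates. S100a8, S100a9, Fcnb, Ngp and BC100530 lie near the bottom in all lineage-negative populations, whereas Mpo, Elane, Prtn3 and Ctsg step down from Lin+ through S0-Low and S0-Medium to S1.

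Together the 10 genes took 0.654%, 0.503% and 0.432% of all counts in the Lin+ libraries. They took 0.0877%, 0.0564% and 0.0438% in the S0-Low libraries, 0.00154% to 0.0193% in those of S0-Medium and at most 0.000172% in any S1, S2 or S3 library. In Lin+ replicate 1 the azurophil genes made up 0.522% of counts and the 5 late genes 0.111%, and in replicates 2 and 3 the shares were 0.314% and 0.161%, and 0.265% and 0.136%. Lin+ replicate 1 thus had the highest azurophil share and the lowest late share of the 3. The same library had the highest Itga2b and Pf4 levels, at 14760 and 7270 normalized counts against 5853 to 6243 and 1602 to 3207 in the others.

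Per kilobase of the longest annotated transcript, Mpo was the highest in Lin+ at 34071 normalized counts, followed by S100a9 at 29732 and S100a8 at 15363. BC100530 (9354), Ngp (6062), Prtn3 (5061) and Anxa1 (4491) came next, and Ctsg (2969), Elane (2615) and Fcnb (2522) were lowest. In S0-Low the order per kilobase was Mpo (5805), Prtn3 (604.5), Ctsg (453.0), Elane (74.1) and Anxa1 (60.0), with the other 5 at 12.7 or below. These levels per length were not tested against each other.

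Against S0-Low, 6 of the 10 genes were higher in Lin+, beside 0.496% of all tested genes. These were the 5 late genes and Anxa1. S100a9 was 2218-fold higher (adjusted p = 5.57e-06), Ngp 2052-fold (adjusted p = 0.00118) and Anxa1 75.4-fold (log2 fold change 6.22 ± 0.68 SE, adjusted p = 0.000107). Fcnb was at least 2877.5-fold higher, taking 3 counts over the 3 S0-Low libraries as the floor (adjusted p = 0.000268). S100a8 and BC100530 rest on 2 counts each in S0-Low. Their ratios were 8674 (95% counting interval 2401 to 71632, adjusted p = 5.92e-05) and 8498 (2352 to 70174, adjusted p = 5.49e-05). Adjusted p-values are from edgeR over all tested genes, and intervals and floors cover counting error only.

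The folds of the 5 late genes depended on a few counts in single S0-Low libraries, whereas that of Anxa1 stayed at 70.0 to 82.8 with any 1 library left out. All 6 genes passed the test without any 1 library. Without S0-Low replicate 3 Ngp was at least 5933-fold higher, and without replicate 1 or 2 it was 1178-fold and 1146-fold higher. Without replicate 2 S100a9 was 3540-fold higher. The bound for Fcnb fell to 1652 without replicate 1 and 1607 without replicate 2. Without replicate 1 S100a8 and BC100530 had no count left in S0-Low and were at least 3319-fold and 3252-fold higher, and without replicate 2 the ratios were 4845 (95% counting interval 1341 to 40013) and 4747 (1314 to 39199).

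The 4 azurophil genes were higher in Lin+ than in every S0-Low library but did not pass the test against S0-Low. Mpo was 4.93-fold higher (log2 fold change 2.55 ± 0.91 SE, adjusted p = 0.271) and Prtn3 6.35-fold (3.06 ± 0.91, adjusted p = 0.157). Ctsg was 6.22-fold higher (2.71 ± 0.68, adjusted p = 0.103) and Elane 25.9-fold (5.12 ± 1.49, adjusted p = 0.166). Without S0-Low replicate 1, which held 192 of its 247 counts there, Elane was 66.7-fold higher. Every Lin+ library lay above all S0-Low libraries in all 10 genes, beside 15.7% of tested genes. All 4 azurophil genes had an unadjusted p under 0.05, which 6.89% of tested genes had in this direction.

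Same-numbered Lin+ and S0-Low libraries deviated together, and with the replicate number as a block Elane (adjusted p = 0.0248), Prtn3 (0.0306) and Ctsg (0.0431) passed while Mpo did not (0.073). That fit called 9 of the 10 genes higher, beside 1.28% of all genes. DESeq2 called the same 3, beside 2.71% of all genes. Without the filter on low counts all 4 passed (adjusted p = 0.00381 to 0.0366), beside 1.03%. In a fit of only the 6 libraries compared, Mpo (0.0191), Elane (0.0231) and Ctsg (0.00428) passed and Prtn3 did not, beside 3.26%. These fits called more of all genes higher than the main fit did. The median log2 fold change of the 10 genes was 8.25 against 0.02 over all tested genes, and 8.62 as ratios with Fcnb at its bound.

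Against S0-Medium all 10 genes were higher in Lin+, beside 2.64% of tested genes. The azurophil genes differed by 39.4-fold for Mpo (adjusted p = 0.0059), 40.0-fold for Prtn3 (0.00585), 44.8-fold for Ctsg (0.00157) and 165.6-fold for Elane (0.0234). S0-Medium replicate 1 held most of their counts. Without it the folds were 161.6 for Mpo, 107.9 for Prtn3 and 86.4 for Ctsg, and Elane was left with 3 counts at a ratio of 1804 (95% counting interval 617.0 to 8748). The Elane call was lost when any 1 of the other 5 libraries was left out (adjusted p = 0.0558 to 0.117).

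Anxa1 and the late genes also rose against S0-Medium. Anxa1 was 230.5-fold higher (adjusted p = 1.06e-05), S100a8 3824-fold (2.21e-05) and Fcnb 1427-fold (0.000289). Fcnb moved to 2437-fold on 3 counts (95% counting interval 833.8 to 11821) without S0-Medium replicate 1 and to 917.7-fold without replicate 2. S100a9, Ngp and BC100530 had 3, 2 and 1 counts in S0-Medium, and the lower limits of their ratios were 6690, 3755 and 4033. Without S0-Medium replicate 2 the S100a9 ratio rested on 1 count, with a lower limit of 6771, and BC100530 was at least 4818-fold higher. The lower limit for BC100530 fell to 2584 without S0-Medium replicate 1 and to 2889 without replicate 3.

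Against S1, S2 and S3 all 10 genes were higher in Lin+, beside 10.9%, 16.3% and 28.2% of tested genes. The adjusted p of the 10 ranged up to 0.00148 (Elane against S1), and all 10 passed without any 1 library. Mpo was 3428-fold higher than in S1 (85 counts), 14042-fold than in S2 (16 counts) and 4930-fold than in S3 (29 counts), and 20720-fold than in S3 without S3 replicate 2, which held 25 of those counts. Without S2 replicate 2 it was 24600-fold higher than in S2. Prtn3 and Anxa1 were 734.7-fold and 1844-fold higher than in S1. S100a9, with no count in S2, was at least 13506-fold higher there, or 7394-fold without S2 replicate 2. The remaining ratios rest on 0 to 5 counts outside Lin+ and are shown in the plot of ratios only.

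The share of all genes that differed depended on the scaling. With library totals in place of TMM factors, 40.1% of genes were higher in Lin+ than in S3 and 7.54% lower, against 28.2% and 14.1%, and the median over all genes was 1.47 in place of 0.69 on the log2 scale. Against S2 the shares were 18.2% and 5.38%, against 16.3% and 8.34%. All 10 genes were higher under each scaling. The median log2 fold change of the 10 was 9.07, 12.78, 14.08 and 14.38 in the comparisons with S0-Medium, S1, S2 and S3 in turn. As ratios with counts of 0 at the floor it was 9.16, 13.3, 12.66 and 11.7.

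**Figure D2:**
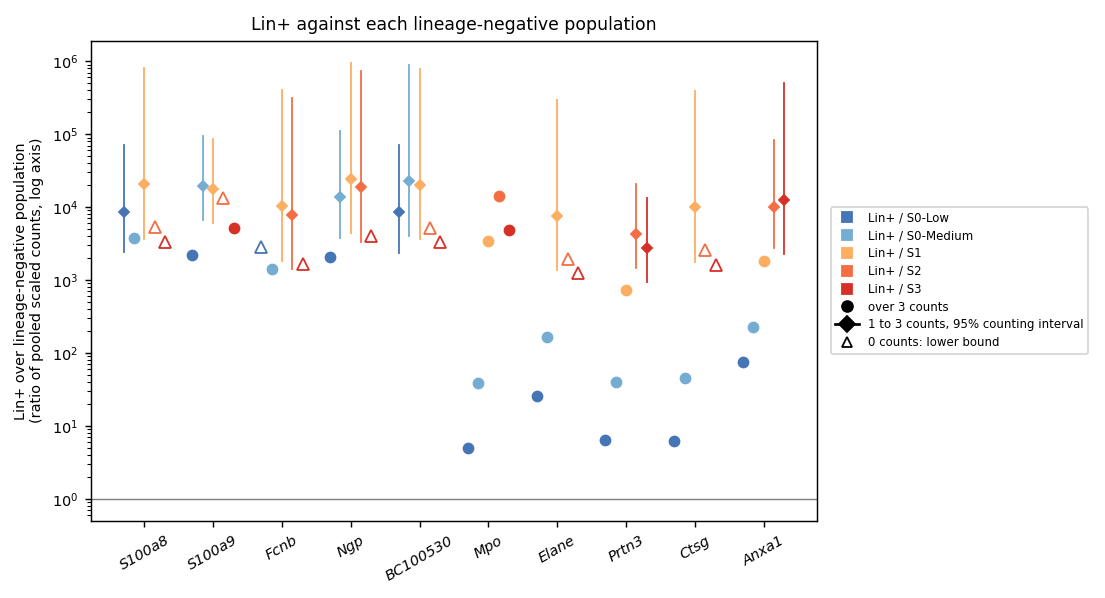
Ratio of the pooled scaled counts of Lin+ to those of each lineage-negative population on a log axis, for each of the 10 genes; circles rest on more than 3 counts, diamonds on 1 to 3 counts with their 95% counting interval, and open triangles are lower bounds. The ratios to S0-Low are 4.93 for Mpo, 6.35 for Prtn3, 6.22 for Ctsg and 25.9 for Elane (66.7 without S0-Low replicate 1), and the other 6 genes lie at 75.4 or above.

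The counts were next set against those of Mpo within each library. S100a9 had 93.5, 238.0 and 242.8 counts per 1000 Mpo counts in Lin+ and 0.175, 0.752 and 0.509 in S0-Low. Ngp had 57.1, 103.1 and 99.9 against 0, 0 and 2.55, and Anxa1 44.7, 101.3 and 138.7 against 4.82, 6.65 and 9.17. S100a8, Fcnb and BC100530 were at 17.3 or more in every Lin+ library and at most 0.0699 in S0-Low.

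The ratios of the serine proteases to Mpo were compared in the same way. Elane had 24.5, 25.8 and 28.3 counts per 1000 Mpo counts in Lin+ and 6.71, 3.12 and 0.255 in S0-Low, without overlap. The S0-Low values of Elane rest on 192, 54 and 1 counts. Ctsg had 22.7, 33.4 and 51.3 in Lin+ and 27.7, 23.7 and 36.4 in S0-Low, which overlapped (two-sided exact permutation test, p = 0.7, n = 3 each). Prtn3 had 44.2, 62.1 and 73.7 in Lin+ and 40.97, 61.2 and 4.33 in S0-Low, which also overlapped (exact p = 0.2). The 7 genes without overlap, Elane included, had an exact p of 0.1, the smallest that 3 libraries against 3 allow. None of these 9 ratios could therefore pass 0.05. The share of all genes whose ratio to Mpo did not overlap was not computed, so the 7 cannot be read as particular to these genes. In S0-Medium, Elane had 6.88, 3.02 and 0 counts per 1000 Mpo counts, all below every Lin+ library. S0-Medium replicate 3, with 297 Mpo counts, had 161.6 for Prtn3, 154.9 for Ctsg and 144.8 for Anxa1, each above every Lin+ library.

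**Figure D3:**
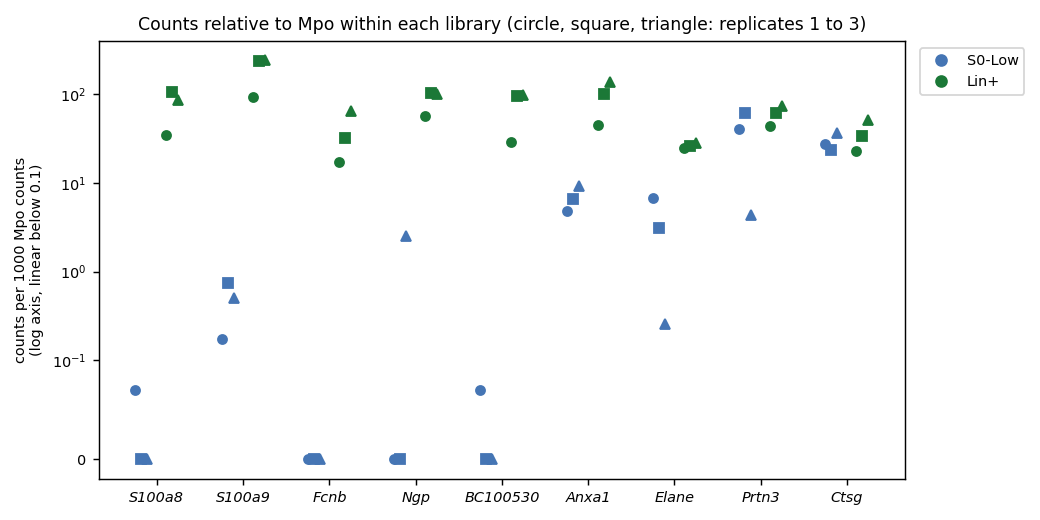
Counts per 1000 Mpo counts in the 3 S0-Low and 3 Lin+ libraries, on a log axis that is linear below 0.1. Elane lies between 24.5 and 28.3 in Lin+ and at most at 6.71 in S0-Low, while Prtn3 and Ctsg overlap between the populations.

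Among lineage-negative cells, the mean level of each azurophil gene and of Anxa1 was highest in S0-Low, although S0-Low replicate 3 lay below S0-Medium replicate 1 for Prtn3 and Elane. In S3 against S0-Low, 5 of 10 genes were lower, beside 24.4% of tested genes, and these were the 4 azurophil genes and Anxa1. Mpo was 999.1-fold lower (adjusted p = 1.86e-05), or 4199-fold without S3 replicate 2. Ctsg was at least 260.6-fold lower (1.38e-05) and Elane at least 47.9-fold (0.00971), with bounds of 151.1 and 27.7 without S3 replicate 2, and 18.6 for Elane without S0-Low replicate 1. Prtn3 and Anxa1, on 3 counts and 1 count in S3, were 435.5-fold (95% counting interval 148.8 to 2113, adjusted p = 9.62e-05) and 168.0-fold lower (29.9 to 6657, adjusted p = 2.07e-05). Without S3 replicate 2 Prtn3 had no count left and was at least 252.5-fold lower, and Anxa1 was at least 42.0-fold lower without S3 replicate 1, and 97.4-fold lower on 1 count without replicate 2 (17.3 to 3859). The other 5 genes had at most 20 counts in S0-Low.

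Between S0-Medium and S0-Low none of the 10 genes passed, beside 0% of tested genes by edgeR in either direction. At an unadjusted p under 0.05, 5 of the 10 (S100a9, Mpo, Prtn3, Ctsg and Anxa1) were lower and 1 (Fcnb, on 8 counts against 0) higher, where 502 (2.83%) and 385 (2.17%) of all tested genes were lower and higher, and DESeq2 called 59 and 26 genes. Mpo was 7.98-fold lower in S0-Medium, Ctsg 7.20-fold, Prtn3 6.30-fold and Anxa1 3.06-fold, and S100a9, on 3 counts, 8.82-fold (95% counting interval 2.61 to 46.3). S100a9 was 5.52-fold lower (1.26 to 33.1) without S0-Low replicate 2, and 17.0-fold on 1 count (2.72 to 705.0) without S0-Medium replicate 2. Elane, at 6.40-fold, had an unadjusted p of 0.0915. Without S0-Medium replicate 1 the folds were 32.8 for Mpo, 13.9 for Ctsg, 17.0 for Prtn3 and, on 3 counts, 69.7 for Elane (95% counting interval 23.6 to 340.5), and Elane was 2.48-fold lower without S0-Low replicate 1. The S0-Medium libraries lay below all S0-Low libraries for 4 of the 10 genes (Mpo, Ctsg, Anxa1 and S100a9), beside 6.27% of tested genes. DESeq2 called Ctsg lower (adjusted p = 0.00382), beside 0.332% of all genes, and the fit without a filter called Mpo lower (0.00811), beside 0.0895%.

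Most genes of the granules that form later were higher in Lin+ than in every lineage-negative population. Of 13 tested genes of specific and gelatinase granules, 9 were higher than in S0-Low, 11 than in S0-Medium, 12 than in S1 and S2 and 13 than in S3. The shares of all tested genes higher in these 5 comparisons were 0.496%, 2.64%, 10.9%, 16.3% and 28.2% in turn, and 11 of the 13 passed against S0-Low with the replicate block. Lcn2 (lipocalin 2, which binds bacterial siderophores) had 3206, 2984 and 1509 normalized counts in Lin+ and none in S0-Low (at least 2322-fold, adjusted p = 0.00253). Camp (the cathelicidin) was at least 1751-fold higher (0.00473) and Mmp9 (gelatinase B) at least 1172-fold (0.00711). The median log2 fold change of the 13 against S0-Low was 8.14, and 0.02 over all genes. In S3 against S0-Low, 3 of the 13 were higher (Lcn2, Mmp9 and Cd177), beside 13.4% of tested genes, and 4 were lower, beside 24.4%. Lcn2 and Mmp9 had 11 and 13 counts in S3, and Cd177 had 35, all in S3 replicate 2. None of the 3 passed without S3 replicate 2 (adjusted p = 0.173, 0.173 and 1) or without S0-Low replicate 1 or 2 (0.0621 to 0.0635). Which genes were called lower also changed with the library left out. Without S3 replicate 3 only Lyz2 was (8.87e-05), and Lyz2 passed without any 1 library (adjusted p up to 0.000111). With the replicate block 3 of 13 were lower, beside 26.6% of tested genes. Cd177 and Lyz2 fell outside the naming rule and were chosen after their values were seen.

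Of 9 listed stefin genes, 7 were matched and 6 tested. The 5 tested stefin A genes were higher in Lin+ than in each of the 5 lineage-negative populations, and Cstb, which is stefin B, was higher than in S3 but did not pass in the other 4 comparisons. The share of all tested genes higher in Lin+ ran from 0.496% against S0-Low to 28.2% against S3. Stfa2l1, Stfa2 and Stfa3 had no count in S0-Low and 2118, 2036 and 1879 normalized counts on average in Lin+. Their lower bounds were 2071-fold, 2024-fold and 1873-fold (adjusted p = 0.00253, 0.00488 and 0.00721). These genes are near copies of each other, so counts can be split among them.

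Of the 6 other genes of azurophil granules and their processing, 0 were higher in Lin+ than in S0-Low by edgeR, 1 than in S0-Medium and 5 than in S1, S2 and S3. The shares of all tested genes were 0.496%, 2.64%, 10.9%, 16.3% and 28.2% in turn, so 0 of 6 against S0-Low is near the background. The replicate block gave 0 of 6 against S0-Low too. Serpinb1a, an inhibitor of neutrophil serine proteases, had means of 4051 normalized counts in Lin+ and 982.6 in S0-Low (5.09-fold, adjusted p = 0.174), and was 29.9-fold higher than in S0-Medium (0.00152). Prss57, a further azurophil protease, had 397.6 and 9.41 (33.4-fold, 0.263), and Cd63, a granule membrane protein, 1866 and 408.2 (3.82-fold, 0.637).

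Transcription factors and cytokine receptors of the granulocyte lineage were also counted. Of 10 tested, 2 were higher in Lin+ than in S0-Low, 8 than in S0-Medium, 10 than in S1 and S2 and 9 than in S3, beside 0.496%, 2.64%, 10.9%, 16.3% and 28.2% of all tested genes. The 2 that passed against S0-Low, with the replicate block as well, were Cebpe, a factor needed for late granule genes, with 1555, 2290 and 2200 normalized counts in Lin+ and a mean of 17.3 in S0-Low (134-fold, adjusted p = 0.0277), and Cebpb, with means of 9772 and 1900 (4.61-fold, 0.0302). Cebpb also had 9333 in S3. Cebpa, which acts earlier, had 3107 in Lin+ and 1835 in S0-Low (1.67-fold, 0.935) and 186.3 in S0-Medium. Gfi1 and Csf2ra were 15.8-fold and 6.41-fold higher than in S0-Low (0.325 and 0.188). Cebpa and Cebpb fell outside the naming rule and were chosen after their values were seen.

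Relatives of the calprotectin genes and of Anxa1 were counted in the same way. Of 13 other S100 genes, 5 were tested and 0 were higher than in S0-Low, 1 than in S0-Medium, 3 than in S1 and 4 than in S2 and S3, beside 0.496%, 2.64%, 10.9%, 16.3% and 28.2% of all tested genes. S100a11 had means of 1390 in Lin+ and 218.7 in S0-Low (6.35-fold, adjusted p = 0.186), S100a6 296.0 and 15.2 (14.7-fold, 0.28) and S100a13 442.1 and 184.1 (2.65-fold, 0.928). Of 8 tested annexins, 0 were higher than in S0-Low and S0-Medium, 1 than in S1, 5 than in S2 and 6 than in S3, where 1 (Anxa7) was lower, beside 14.1% of tested genes. With the replicate block 3 annexins (Anxa2, Anxa3 and Anxa6) were higher than in S1, beside 13.8% of all tested genes, and 6 than in S2, beside 18.8%. Against S0-Low still 0 annexins and 0 S100 genes passed, beside 1.28%. With 0.496% of all tested genes called against S0-Low, counts of 0 of 5 and 0 of 8 are near the background. Anxa3 was 6.75-fold, Anxa2 6.60-fold and Anxa11 3.19-fold above S0-Low (0.664, 0.427 and 0.609).

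Among receptors of the gene products, 1 of 4 tested was higher in Lin+ than in S0-Low, 2 than in S0-Medium, S1 and S2 and 3 than in S3, beside 0.496%, 2.64%, 10.9%, 16.3% and 28.2% of all tested genes. Fpr1, the formyl peptide receptor at which annexin A1 acts, had 643.0, 751.2 and 486.9 normalized counts in Lin+ and none in any of the 15 lineage-negative libraries, and was at least 586.7-fold higher than in S0-Low (adjusted p = 0.0319), a call that was lost with the replicate block (0.0553). Tlr4 and Cd36, at which calprotectin is reported to act, were 5.84-fold and 21.2-fold higher (0.508 and 0.463). With the block 0 of 4 receptors were higher than in S0-Low and 3 of 4 than in S1, beside 1.28% and 13.8%.

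**Figure D4:**
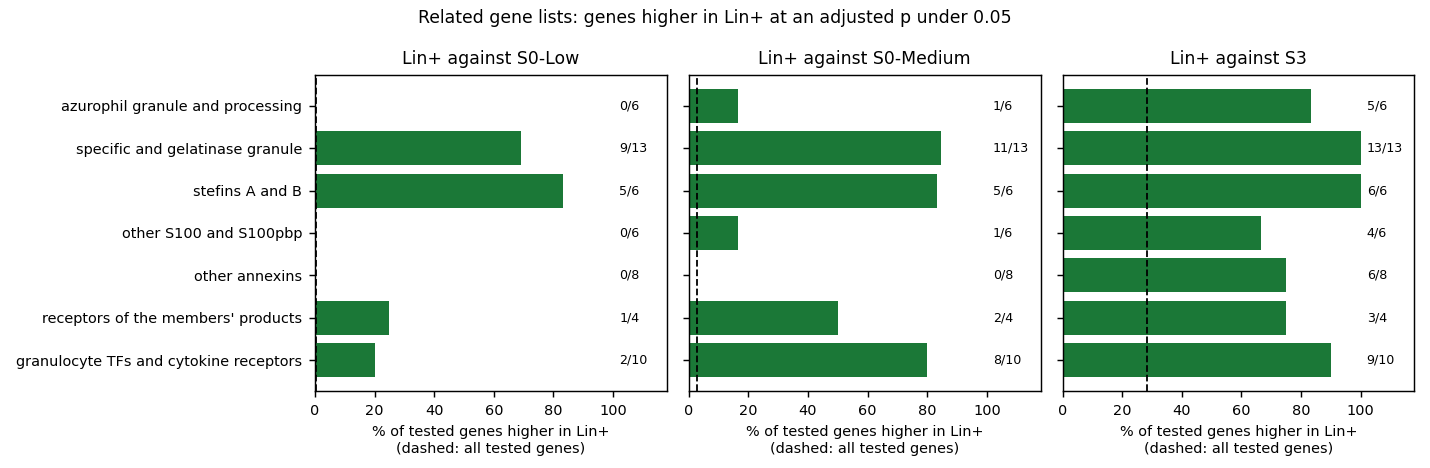
Percent of the tested genes of 7 related lists that were higher in Lin+ at an adjusted p under 0.05, in 3 comparisons, with the number of genes printed and a dashed line at the percent over all tested genes. Against S0-Low, 9 of 13 specific and gelatinase granule genes and 5 of 6 stefins were higher, beside 0 of 6 genes of the azurophil list, 0 of 6 of the S100 list, which includes the S100-binding protein gene S100pbp, and 0 of 8 annexin genes.

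The genes whose pattern over the 18 libraries was most like that of each group were sought among 12883 genes by Pearson's r of log2(CPM + 0.5), where CPM is the count scaled to a common library total. For the mean of the 5 late genes they were Cd14 (r = 0.9994), Prg3 (0.9993), Itgb2l (0.9993), Chi3l1 (0.9992) and Retnlg (0.9991). These 5 had at most 4 counts in all 15 lineage-negative libraries, so r reflects Lin+ against the rest. For the mean of the 4 azurophil genes they were Pik3r5 (0.9933), Atp8b4 (0.9929), Fgd4 (0.9911), Irf5 (0.9887) and Ebi3 (0.9886). Pik3r5 had means of 2724 normalized counts in Lin+, 291.5 in S0-Low and 81.4 in S0-Medium and no count in S1, S2 or S3. The libraries share depth and gating, so r is a description.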

How the data were processed

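Nascent RNA was measured in 18 libraries, 3 of each of 6 populations, which were assigned from the labels. The authors made stranded libraries by PCR without molecular identifiers, quantified reads with Kallisto (version 0.43.0 and build GRCm38 per the submitters' processing notes) and deposited raw counts per gene. Reads that fit several transcripts are divided among them. Transcript lengths and shared stretches came from the protein-coding transcripts of GENCODE (mm9), coordinates and promoters from RefSeq (GRCm38.p6).

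All 18 libraries entered 1 edgeR model with population as the factor (TMM, filterByExpr, two-sided quasi-likelihood test, Benjamini-Hochberg over 17755 genes, adjusted p under 0.05). The common biological coefficient of variation was 0.771. Depth was 9452476 to 40567976 counts per library. Replicate pairs differed by more than sampling noise. Ratios are of summed counts over summed effective sizes. R 4.3.3, edgeR 4.0.16, DESeq2 1.42.0, Python 3.11.15, numpy 2.4.6, pandas 2.3.3, scipy 1.17.1 and matplotlib 3.10.9 were used. The model was tested on simulated counts before use.

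Same-numbered libraries of Lin+ and S0-Low correlated at 0.192 to 0.302 in their deviations from the population means, with S1 at 0.259 to 0.309 and with S2 at 0.2 to 0.281. S0-Medium and S0-Low correlated at 0.257 to 0.388. Every pair exceeded 0.1, so the numbers were taken to pair these samples. This was not so for Lin+ with S0-Medium or S3, or for S3 with S0-Low. Differently numbered libraries were not compared. The block was fitted over all 18 libraries, so it also entered the comparisons in which the numbers were not taken to pair samples. The labels do not say what a number stands for.

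The 10 genes and all lists were chosen with earlier results of these data known. Named were the 10 genes, in each related list the 3 genes with the largest change in Lin+ against S0-Low at a mean of at least 100 normalized counts, the sorting antigens and the 5 most similar genes of each group. Klf1, Adgre1, Prg2, Epx, Csf3r, Cxcr2, Pf4, Anxa6 and Anxa7 were named for their calls or levels and not by this rule. Alternatives were RLE factors, library totals, no filter, DESeq2, only the 6 libraries compared, a robust fit, the replicate block, other pseudocounts and each replicate left out. Ratios with a library left out were added after seeing the data.

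Counts of the S100 list without S100pbp, of the stefins without Cstb, of all lists with the replicate block, and of the granule genes in S3 with a library left out were chosen after seeing the data.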

Additional observations from a re-analysis of the deposited data

How the results depend on the processing

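Of 899 values of the 10 genes under the alternatives, 872 kept their direction and side of the threshold, 20 passed it newly, 5 lost it (Elane against S0-Medium) and 2 turned their sign. The 2 were the log2 fold changes between S0-Medium and S0-Low of BC100530 without S0-Low replicate 1 (1.63, range with each replicate left out -2.68 to 1.63) and of Ngp without S0-Low replicate 3 (2.43, range -4.03 to 2.43), both on few counts. Against S0-Low, all 10 genes were higher in Lin+ with no filter, beside 1.03% of all genes. The number was 9 with the replicate block (1.28%), with DESeq2 (2.71%) and in only the 6 libraries (3.26%). It was 6 with RLE factors (0.631%), library totals (0.507%), a robust fit (0.49%) and each replicate left out (0.156% to 0.241%). Leaving out replicates changed no other count of Lin+ calls except 9 against S0-Medium, beside 0.55% to 1.09%. The block changed no other call of the 10 genes. Between S0-Medium and S0-Low, 1 of the 10 was lower with no filter (0.0895% of all genes) and 1 with DESeq2 (0.332%). In S3 against S0-Low the number lower was 4 in only the 6 libraries, beside 18.1% of all genes. It was 5 to 6 otherwise, beside 14.5% to 39.2%, where Ngp passed in 4 alternatives and S100a9 in 1.

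The median log2 fold change of the 10 against S0-Low was 8.51 with the replicate block, 8.40 in only the 6 libraries, 7.99 with DESeq2 and 7.80 to 8.61 with a replicate left out. With a replicate left out it was 8.59 to 10.91 against S0-Medium, 12.35 to 14.40 against S1, 13.81 to 14.58 against S2 and 14.16 to 15.00 against S3, and 13.28 against S3 with DESeq2. Between S0-Medium and S0-Low it was -3.17 to -1.68 with a replicate left out. In S3 against S0-Low it was -9.39 in only the 6 libraries, where genes without counts drop out, and -6.77 to -5.04 with a replicate left out, the last without S0-Low replicate 3. With a pseudocount of 0.1, 3 of the 5 genes most like the late group remained. Apart from these the cause was not tested.

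Over all genes, 88 were higher and 39 lower in Lin+ than in S0-Low, but 481 and 135 with DESeq2, 311 and 82 with no filter, 227 and 115 with the replicate block, 520 and 53 in only the 6 libraries, and 29 to 46 and 13 to 32 with a replicate left out. For the 5 late genes, and for the ratios to S1, S2 and S3, few reads outside Lin+ limit the size of a fold.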
